A study of Homo sapiens with 6 samples.

Results

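The genes described here are 33 direct transcriptional targets of the tumour suppressor p53. They were chosen by name from the gene count table, with earlier results of these data known. All 33 were found among the 58735 genes of the table, and all 33 had enough counts to be tested, SPATA18 through its knockdown libraries alone. The study asked which genes change when CNOT7, a deadenylase subunit of the CCR4-NOT complex that shortens the poly(A) tails of mRNAs, is depleted in colorectal cancer cells. RNA was sequenced from 3 control libraries and 3 CNOT7 knockdown libraries of SW480, a colorectal cancer cell line, labelled as untreated. The knockdown cells were made stable with an shRNA. Control libraries have the genotype label CNOT7 control and are named shNc in the counts. This name reads as a control shRNA and is not explained further. The paper names the sequenced cells HCT116, another colorectal cancer line. The lines are known to differ in p53 function, which SW480 lacks, so the name of the line decides in which of these settings the targets are read. Counts per gene do not show this function, and neither name was tested against reference profiles of the lines. The labels do not say which shRNA a knockdown library carries or that the libraries come from separate cultures. P-values therefore measure only the spread between these libraries, which may be technical.

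p53 is a transcription factor that is stabilized after DNA damage and binds short DNA elements in its target genes. Its targets stop the cell cycle, trigger cell death, adjust metabolism and supply repair, and some of them feed back to restrain p53 itself. Many also have p53-independent control, among them CDKN1A, GADD45A, PLK2 and PLK3, and are transcribed also in cells whose p53 is mutant. In colorectal cancer, loss of this programme is a common event and is linked to the response to radiation.

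The libraries held between 23788451 and 25982493 counts in the control group and between 27523812 and 29104872 in the knockdown group, and the 33 genes together took 0.176% to 0.18% of the control counts and 0.169% to 0.176% of the knockdown counts. CNOT7 itself was at 169, 191 and 176 CPM in the control libraries (replicates 1, 2 and 3, as in all lists of values below) and at 43.4, 47.2 and 38.6 CPM in the knockdown libraries. CPM is the count of a gene relative to the library total, scaled by TMM normalization. This was a log2 fold change of -2.05 (SE 0.0734, edgeR adjusted p = 2.64e-12). Of 11 fixed markers of colorectal epithelium, 7 were expressed, led by KRT8 at 2579 to 2860 CPM and KRT18 at 1988 to 2062 CPM in the control libraries. The other 4, KRT20, CDX1, LGALS4 and CEACAM5, had at most 9 counts in any library. The epithelial adhesion gene CDH1 was low, with 21.7 to 24.8 CPM in controls, and the mesenchymal gene VIM was at 261.1 to 271.2 CPM. With knockdown, CDH1 (log2 fold change 0.51) and VIL1 (0.72) rose and KRT8 (-0.15), KRT19 (-0.18) and VIM (-0.24) fell past the threshold, and the part of these markers in the results was not tested. Of 10 markers of fibroblasts, endothelium and leukocytes, 3 had enough counts for a test (COL1A1, PDGFRB and VWF, at most 9.64 CPM), none of the 3 passed it, and the leukocyte gene PTPRC was at 0 counts in 5 of 6 libraries. In bulk RNA, fewer cells that express a gene and less of its RNA per cell cannot be told apart.

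The element that p53 reads is built from decamers, each made of 3 purines, a C, 2 bases that are A or T, a G and 3 pyrimidines. The motif reads the same on both strands. It was searched, with no mismatch allowed, in RefSeq promoter windows on GRCh38.p14. They run from 250 bases before to 50 bases after a RefSeq start, of which a gene can have several. The windows covered 26 of the 33 genes. TNFRSF10A, TNFRSF10B, TP53INP1, RRM2B, GADD45A, PHLDA3 and CMBL had none in the table. Of the 26, 6 held at least 1 decamer (23.1%), beside 2202 of all 27305 genes in the table (8.06%). Counted by window, the shares were 15.8% of 38 and 6.63% of 35116. The list was made of known p53 targets, so this difference is no independent result. The 6 are shown because they are the genes of the group with such a decamer near a RefSeq start. The decamer is in capitals, with at most 10 bases on each side, 5′ to 3′ on the strand of the gene.
PLK2: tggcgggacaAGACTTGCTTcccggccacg
EPS8L2: cctgtgctccAGGCTTGTCCacagctccgg
SESN1: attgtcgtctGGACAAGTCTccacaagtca
FAS: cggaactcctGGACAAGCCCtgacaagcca
AEN: agtcggagccGGGCTTGCCCgggcatgtgg
FDXR: gggcaggagcGGGCTTGCCCt
The decamer of PLK2 lies at chr5:58460209-58460218 on the reverse strand, from 132 to 123 bases before a RefSeq start and inside an exon of GENCODE release 29. That of EPS8L2 lies at chr11:720515-720524 on the forward strand, and that of SESN1 at chr6:109009028-109009037 on the reverse strand, both within the gene and outside its exons. The RefSeq starts near these 2 are internal, since EPS8L2 begins at 694438 and SESN1, on the reverse strand, at 109094819. The decamers of FAS (chr10:88991309-88991318, forward strand), AEN (chr15:88621306-88621315, forward strand) and FDXR (chr17:74872996-74873005, reverse strand) lie in annotated exons. A full p53 element joins a pair of decamers. The second decamer may lie on either side. The 10 bases before and the 10 after differ from the motif at 4 and 2 positions in FAS. These numbers are 5 and 2 in AEN, 4 and 3 in SESN1, 3 and 6 in FDXR, 6 and 6 in EPS8L2 and 5 and 9 in PLK2. For FDXR, most of the bases after the decamer lie beyond the stretch shown. Of the 6 genes, PLK2 and EPS8L2 fell with CNOT7 knockdown and SESN1, FAS, AEN and FDXR did not pass the test (values below). A match is a description of the letters in this window and says nothing on binding.

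Levels between genes were compared as TPM, which divides counts by gene length. This length covers all annotated exons of a gene, so TPM is too low where part of them is not expressed. In the control libraries the highest was PERP, a desmosomal membrane protein of the p53 death programme, at 366 ± 18.6 TPM (SD, n = 3). It was followed by CCNG1, an atypical cyclin that binds the PP2A phosphatase, at 232 ± 13.9 TPM and by SFN, the 14-3-3σ protein that holds cells in G2, at 156 ± 21.5 TPM. EPS8L2 at 117 ± 8.66 TPM and CDKN1A at 115 ± 5.70 TPM came next, with ranges that overlapped. MDM2, which encodes the ubiquitin ligase of p53, was at 12.9 ± 0.461 TPM. The lowest were KITLG at 2.03 ± 0.0805, TIGAR at 0.992 ± 0.406, EDA2R at 0.539 ± 0.0937 and SPATA18 at 0.156 ± 0.0640 TPM. Of 32 pairs of neighbours in this order, 14 had overlapping ranges over the 3 control libraries and cannot be ranked. Reads of TIGAR are uncertain, since 42.6% of its exonic bases are shared with another gene on the same strand, and so are those of GLS2, with 77.1% shared with SPRYD4 on the opposite strand, because the strand setting of the counting is not stated.

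**Figure D1:**
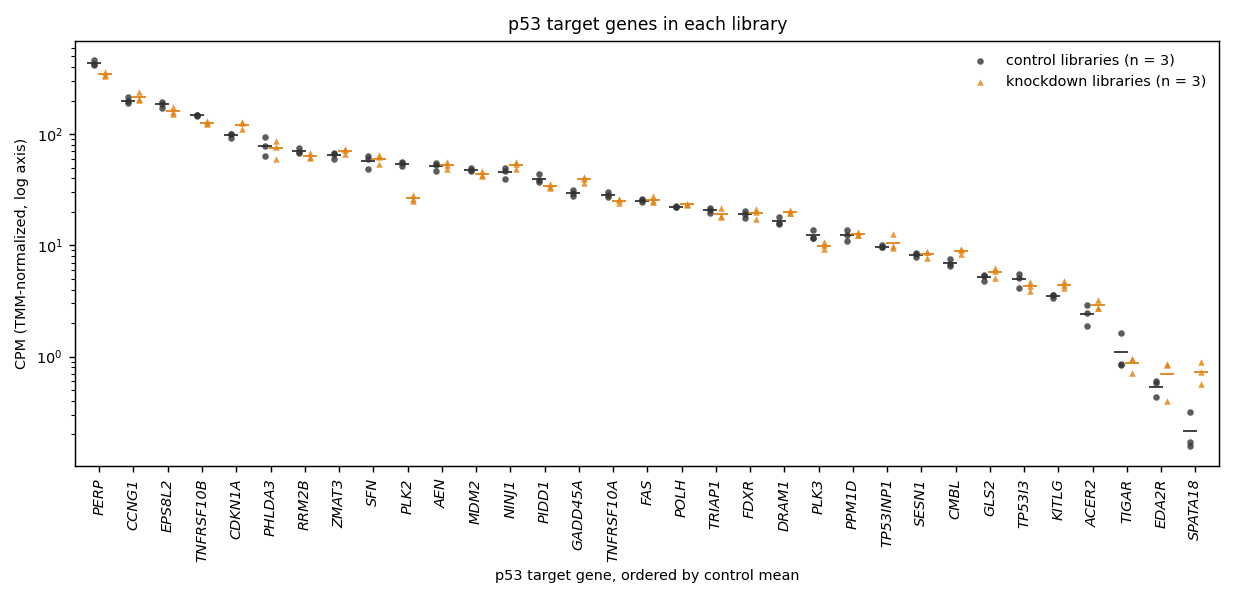
CPM (TMM-normalized, log axis) of each of the 33 p53 target genes in 3 control libraries (circles) and 3 knockdown libraries (triangles), with horizontal bars at the group means and genes ordered by the control mean. The groups overlap for most genes, and PLK2 and SPATA18 are the genes whose groups stand furthest apart.

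With CNOT7 knockdown, 11 of the 33 genes changed, 5 upwards and 6 downwards, and the list as a whole stayed near 0. Higher were CDKN1A, GADD45A, SPATA18, DRAM1 and CMBL. Lower were PLK2, PERP, PLK3, TNFRSF10B, PIDD1 and EPS8L2. These 11 are 33.3% of the genes, beside 25.2% of all 17574 genes tested (edgeR's quasi-likelihood test, Benjamini-Hochberg adjusted p under 0.05). Upward calls made up 13.3% and downward calls 11.9% of all genes tested. Groups did not overlap for 13 of the 33 genes, 7 higher and 6 lower, which is 39.4% beside 38.8% of all genes. The median log2 fold change was 0.038 over the 33 genes and 0.004 over all genes, with 20 of the 33 above 0 and 13 below, and the median size of the change regardless of sign was 0.198 and 0.177. Both shares are near those of all genes. The 33 genes were chosen with earlier results of these data known. Their shares, and those of the roles below, are therefore no independent test. PLK2 and SPATA18 changed by at least 1 on the log2 scale and passed the test, as did 3.63% of all genes. SPATA18 entered the test only through its knockdown libraries. Its place among the calls, the groups without overlap and the large changes is therefore no support. Without control replicate 3 or without knockdown replicate 1 only 3 of the 33 genes rose and 3 fell, and without control replicate 1 only 3 fell.

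**Figure D2:**
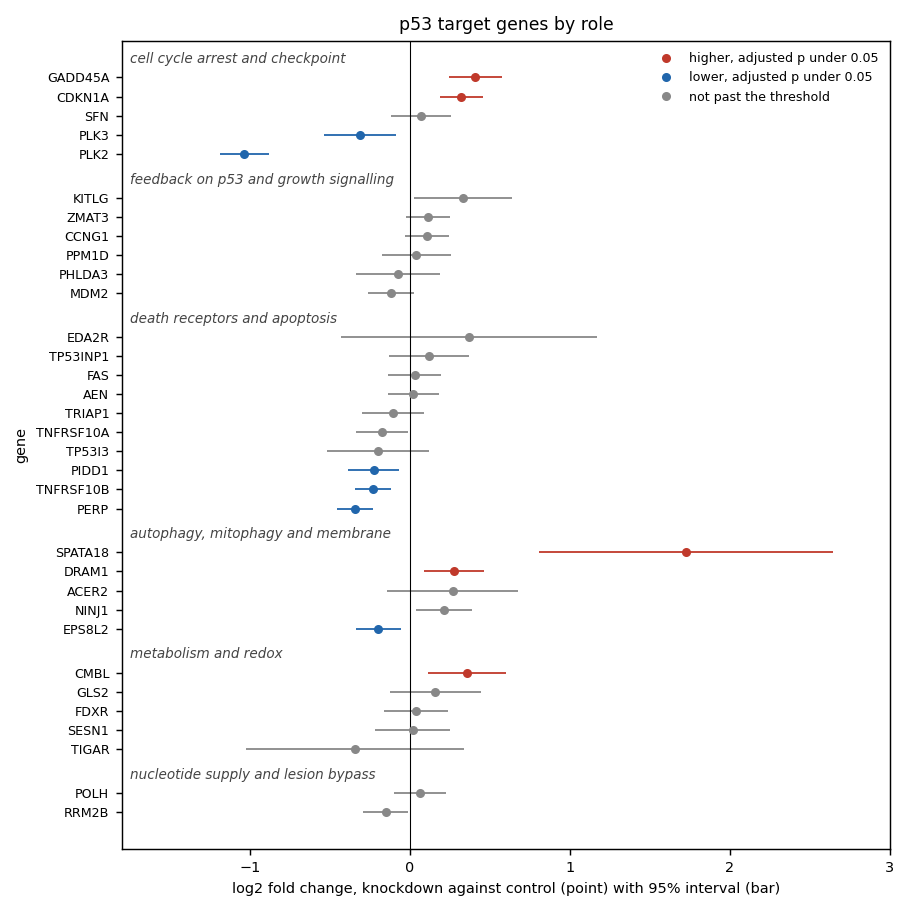
Log2 fold change between knockdown and control (points) with 95% intervals (bars) of the 33 genes, grouped by role, in red where higher and in blue where lower at an adjusted p under 0.05 and in grey otherwise. Calls in both directions stand side by side among the arrest genes, the calls among the apoptosis genes are lower, and the feedback genes have no call, beside 25.2% called of all tested genes. The difference between roles was not tested.

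Among 5 genes of cell cycle arrest, 2 rose, 2 fell and SFN did not pass the test. This is 80% called, beside 25.2% of all tested genes, and the difference was not tested. CDKN1A (ENSG00000124762, chromosome 6, 36676460 to 36687339 on GRCh38), which encodes the p21 inhibitor of cyclin-dependent kinases, was at 100.3, 92.1 and 99.9 CPM in the control and at 124.6, 111.9 and 128.8 CPM in the knockdown libraries. Every knockdown library lay above every control library. The log2 fold change was 0.32 (SE 0.0636, edgeR adjusted p = 0.00124), a rise of 24.9%. GADD45A (ENSG00000116717, chromosome 1, 67685061 to 67688338), a stress sensor that acts on the G2 checkpoint and on p38 signalling, was at 31.5, 27.7 and 29.3 CPM in the control and at 39.8, 36.4 and 41.4 CPM in the knockdown libraries, again with no overlap. Its log2 fold change was 0.41 (SE 0.0772, edgeR adjusted p = 8.07e-04). The 2 polo-like kinases of the list moved the other way. PLK2 (ENSG00000145632, chromosome 5, 58453982 to 58460260), a stress-induced kinase of centriole duplication, was at 55.7, 55.2 and 51.9 CPM in the control and at 24.9, 28.4 and 26.2 CPM in the knockdown libraries. This was the strongest call among the 33 genes, with a log2 fold change of -1.03 (SE 0.0724, edgeR adjusted p = 1.77e-08), and the highest knockdown library was well below the lowest control library. PLK3, a kinase of the DNA damage and stress response, was at 13.7, 11.7 and 11.5 CPM in the control and at 9.97, 9.17 and 10.6 CPM in the knockdown libraries. The log2 fold change was -0.31 (SE 0.107, edgeR adjusted p = 0.042), and leaving out a single library raised the adjusted p above the threshold in 4 of 6 cases, to 0.201 without control replicate 1, 0.0554 without control replicate 3, 0.0966 without knockdown replicate 1 and 0.104 without knockdown replicate 2. SFN ranged from 48.8 to 63.6 CPM in the control and from 53.6 to 64.8 CPM in the knockdown libraries, with a log2 fold change of 0.07 (95% interval -0.121 to 0.258).

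None of the 6 genes of feedback on p53 and growth signalling passed the test, beside 25.2% called of all tested genes. MDM2 was at 47.7, 49.2 and 46.2 CPM in the control and at 42.3, 46.9 and 42.8 CPM in the knockdown libraries, groups that overlapped, with a log2 fold change of -0.12 (95% interval -0.259 to 0.027, edgeR adjusted p = 0.234). PPM1D, the WIP1 phosphatase that switches off the damage response, had a log2 fold change of 0.04 (95% interval -0.177 to 0.260). CCNG1 had 0.10 (-0.033 to 0.243) and ZMAT3, an RNA-binding zinc-finger protein, 0.11 (-0.027 to 0.254) on the same scale. These intervals leave room for modest changes in either direction but not for the fall seen in PLK2. PHLDA3, which blocks AKT at the membrane, varied most among replicates, from 62.9 to 93.9 CPM in the control and from 59.2 to 86.9 CPM in the knockdown libraries, and 19.1% of its exonic bases are shared with another gene on the same strand. KITLG, the ligand of the KIT receptor, had groups that did not overlap, 3.58, 3.35 and 3.59 CPM against 4.36, 4.75 and 4.16 CPM, with a log2 fold change of 0.33 (95% interval 0.025 to 0.641) that did not pass after adjustment (edgeR adjusted p = 0.108).

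Of 10 genes of death receptors and apoptosis, 3 fell, none rose and 7 did not pass the test, and this share of 30% is near the 25.2% of all tested genes. PERP (ENSG00000112378, chromosome 6, 138088505 to 138107511) was at 420.8, 462.9 and 427.2 CPM in the control and at 331.6, 361.1 and 340.1 CPM in the knockdown libraries. The groups were well apart, and the log2 fold change was -0.34 (SE 0.0542, edgeR adjusted p = 1.6e-04). TNFRSF10B (ENSG00000120889, chromosome 8, 23020133 to 23069179), the death receptor DR5 for the ligand TRAIL, was at 149.1, 146 and 148.9 CPM in the control and at 126.6, 122 and 130.5 CPM in the knockdown libraries. Its log2 fold change was -0.23 (SE 0.0534, edgeR adjusted p = 0.00452), a fall in each knockdown library below each control library. TNFRSF10A, the second TRAIL receptor (DR4), was at 30, 28.3 and 27.2 CPM against 26.3, 23.8 and 25.7 CPM, also without overlap, but the log2 fold change of -0.18 (95% interval -0.339 to -0.013) did not pass after adjustment (edgeR adjusted p = 0.107). For TNFRSF10A, 16.6% of exonic bases are shared with genes on the opposite strand. PIDD1, which forms the PIDDosome that activates caspase-2, was at 43.5, 36.8 and 38.9 CPM in the control and at 33.6, 32.7 and 35.6 CPM in the knockdown libraries. Its log2 fold change was -0.23 (SE 0.0769, edgeR adjusted p = 0.0384), and the adjusted p without 1 library was 0.213 (control replicate 1), 0.0825 (control replicate 3), 0.113 (knockdown replicate 1) and 0.0714 (knockdown replicate 2).

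The remaining apoptosis genes had overlapping groups. FAS, the receptor for FAS ligand and the gene with the decamer GGACAAGCCC shown above, was at 25.4, 25.8 and 24.3 CPM against 25.3, 27.5 and 24.4 CPM, a log2 fold change of 0.03 (95% interval -0.134 to 0.196). AEN, an exonuclease that degrades DNA in apoptosis, had 0.02 (-0.136 to 0.181) and TRIAP1, a mitochondrial survival factor, -0.10 (-0.298 to 0.088). TP53INP1, which links p53 to autophagy and cell death, was at 10, 9.59 and 9.66 CPM in the control libraries and at 9.79, 12.6 and 9.40 CPM in the knockdown libraries, where replicate 2 stood apart. TP53I3, an oxidoreductase that generates oxidative stress, had a log2 fold change of -0.20 with a wide interval (-0.521 to 0.117). EDA2R, the ectodysplasin A2 receptor, had 10 to 25 counts per library and did not pass the test, with a log2 fold change of 0.37 and an interval (-0.429 to 1.172) that leaves room for a change in either direction.

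**Figure D3:**
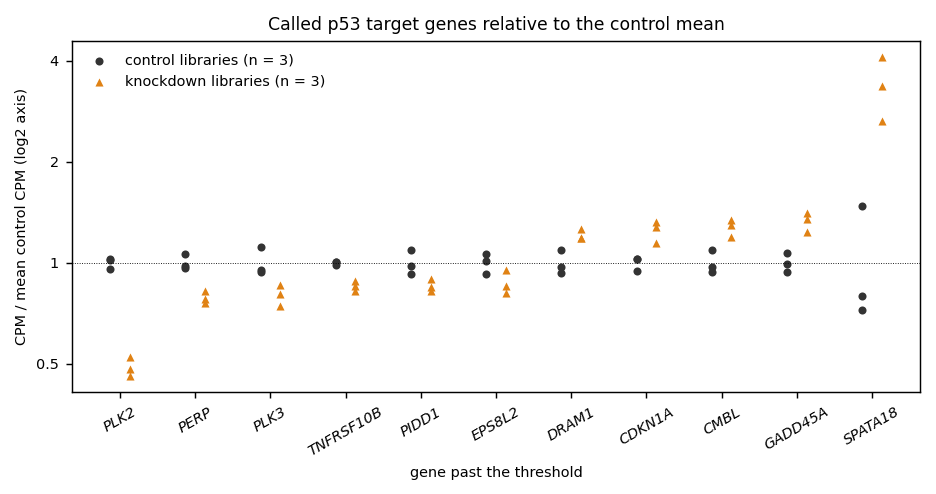
CPM of the 11 called genes divided by the mean control CPM of the gene (log2 axis), for 3 control libraries (circles) and 3 knockdown libraries (triangles), ordered by fold change. In the knockdown libraries PLK2 lies furthest below and SPATA18 furthest above the control mean, and EPS8L2 is the only called gene whose groups overlap.

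Of 5 genes of autophagy, mitophagy and membranes, 2 rose and 1 fell (60% called, beside 25.2% of all tested genes, a difference that was not tested). SPATA18 (ENSG00000163071, chromosome 4, 52051331 to 52097292), also known as Mieap and involved in the quality control of mitochondria, had 4, 4 and 8 counts in the control and 25, 20 and 17 counts in the knockdown libraries. Every knockdown library was above every control library, at 0.571 to 0.887 CPM against 0.156 to 0.319 CPM. The log2 fold change was 1.73 (SE 0.435, edgeR adjusted p = 0.00727), and the ratio of the pooled counts, 62 against 16, was 3.35 after scaling for depth (95% exact binomial interval 1.91 to 6.22, which covers counting error only). SPATA18 entered the test only through the knockdown group, since 3 knockdown libraries and 0 control libraries reached the count minimum, so that a gene at this level had to differ to be tested. With no filter on low counts the edgeR adjusted p was 0.00391. That fit moved other genes in both directions. The edgeR adjusted p of CNOT7 went from 2.64e-12 to 1.16e-201, while DRAM1 and CMBL lost their calls. Its p-values are thus not comparable with those of the main fit, and 0.00391 adds no support. DRAM1, a lysosomal membrane protein that promotes autophagy, was at 16, 18 and 15.4 CPM in the control and at 19.5, 20.8 and 19.5 CPM in the knockdown libraries. Its log2 fold change was 0.28 (SE 0.0886, edgeR adjusted p = 0.0302), with an adjusted p of 0.0951, 0.153, 0.0824 and 0.0689 without control replicate 1, control replicate 3, knockdown replicate 1 and knockdown replicate 2. EPS8L2, an actin regulator and a carrier of the decamer AGGCTTGTCC, was at 196, 170.6 and 187.1 CPM against 157.2, 150.1 and 175.5 CPM. These groups overlapped, since knockdown replicate 3 lay above control replicate 2, and the log2 fold change was -0.20 (SE 0.0662, edgeR adjusted p = 0.0362). Leaving out the same 4 libraries gave adjusted p-values of 0.145, 0.116, 0.127 and 0.0874 for EPS8L2.

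NINJ1 and ACER2 did not pass the test. NINJ1, the membrane protein that ruptures the plasma membrane of dying cells, was at 49.85, 39.85 and 46.5 CPM against 53.3, 48.5 and 56.5 CPM. Only knockdown replicate 2 lay within the control range, and the log2 fold change was 0.22 (edgeR adjusted p = 0.0661). It passed without control replicate 1 (adjusted p = 0.0249) and without knockdown replicate 2 (adjusted p = 0.0166). ACER2, a ceramidase of the Golgi, had a log2 fold change of 0.27 (95% interval -0.140 to 0.676).

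Of 5 metabolic and redox genes, 1 rose (20% called, beside 25.2% of all tested genes). CMBL, a hydrolase of the dienelactone family, was at 6.73, 7.57 and 6.50 CPM in the control and at 8.30, 9.31 and 8.999 CPM in the knockdown libraries, with no overlap. Its log2 fold change was 0.36 (SE 0.115, edgeR adjusted p = 0.0304). The call rested on nearly the full set of libraries, because the adjusted p lay between 0.0517 and 0.129 when control replicate 1 or 3 or knockdown replicate 1, 2 or 3 was left out. SESN1, an inhibitor of mTORC1 that carries the decamer GGACAAGTCT, had a log2 fold change of 0.02 (95% interval -0.217 to 0.252) and FDXR, the mitochondrial ferredoxin reductase, one of 0.04 (-0.164 to 0.239). GLS2, a mitochondrial glutaminase, had 0.16 (-0.124 to 0.442). TIGAR, which lowers glycolytic flux, had 21 to 38 counts per library and a log2 fold change of -0.34 (95% interval -1.024 to 0.336) that did not pass. The 2 genes of nucleotide supply and lesion bypass did not pass, beside 25.2% called of all tested genes. RRM2B, the p53-inducible subunit of ribonucleotide reductase, was at 67, 75.7 and 68.6 CPM against 61.8, 67.2 and 61 CPM, a log2 fold change of -0.15 (edgeR adjusted p = 0.108, and 0.0353 without knockdown replicate 2). POLH, the polymerase that copies past ultraviolet lesions, was at 22.2, 22.6 and 22.2 CPM against 23.6, 23.4 and 22.9 CPM. Its groups did not overlap, yet the log2 fold change was 0.06 (95% interval -0.097 to 0.223).

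The p53 relative TP63 had at most 3 counts in any library, and its other relative TP73 was at 22.1, 17.6 and 20.4 CPM against 13.9, 11.6 and 15.8 CPM, a fall of 0.54 on the log2 scale (SE 0.114, edgeR adjusted p = 0.00203). In the list of 30 genes of p53, its family and its regulators, 29 were tested, of which 2 rose and 7 fell (31.0%, near the 25.2% of all tested genes). CHEK2, the checkpoint kinase that phosphorylates p53, rose from 24.1 ± 1.26 to 32.3 ± 1.33 CPM (SD, n = 3), with a log2 fold change of 0.42 (edgeR adjusted p = 5.56e-04). MDM4, the partner of MDM2 that masks the activation domain of p53, rose by 0.25 on the log2 scale (edgeR adjusted p = 0.0166), but reached only 0.0717 without control replicate 2 and 0.0556 without knockdown replicate 1. The acetyltransferases CREBBP and EP300, which serve as p53 coactivators, fell by 0.46 (edgeR adjusted p = 1.26e-05) and 0.30 (edgeR adjusted p = 0.00128) on the log2 scale, and neither had groups that overlapped. KAT5, another acetyltransferase of the list, did not pass the test (log2 fold change -0.05, edgeR adjusted p = 0.75). The methyltransferases SETD7 and PRMT5, which both act on p53, fell by 0.31 (edgeR adjusted p = 4.82e-04) and 0.24 (edgeR adjusted p = 0.00568). KMT5A, another methyltransferase of the list, did not pass (-0.13, edgeR adjusted p = 0.162). KAT5 and KMT5A were named after their values were seen. The remaining calls were ATR, a damage kinase, at -0.19 (edgeR adjusted p = 0.0466) and TRIM28, a corepressor, at -0.14 (edgeR adjusted p = 0.0496). The call of ATR was lost in 4 of the 6 fits that left out 1 library (adjusted p 0.106 to 0.179; control replicates 2 and 3, knockdown replicates 1 and 3) and that of TRIM28 in 5 (0.0504 to 0.175; all but control replicate 2).

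A wider list of 104 other p53 targets, written from textbook knowledge with earlier results of these data known, also moved in both directions. Its share of calls is therefore no independent test. Of 93 tested genes, 24 rose and 22 fell (49.5%, beside 25.2% of all genes), with a median log2 fold change of 0.028. These genes were more abundant than the average gene, with a median of 5.09 on the log2 CPM scale against 4.07 for all tested genes and 4.67 for the 33 genes above, and the part of abundance in the number of calls was not tested. Without knockdown replicate 1 only 14 rose, and without control replicate 3 only 14 fell. The largest rises past the threshold were KANK3 (log2 fold change 1.16, edgeR adjusted p = 6.1e-04), the stress cytokine GDF15 (0.95), the mTORC1 inhibitor DDIT4 (0.88), APOBEC3H (0.71) and the growth factor PGF (0.59). GDF15 was at 7.90, 7.27 and 7.06 CPM in the control and at 14.7, 14.2 and 14.1 CPM in the knockdown libraries, and DDIT4 at 22, 21.1 and 21.1 CPM against 38.8, 35 and 44.1 CPM. APOBEC3H, at 1.28 to 1.81 CPM in the control libraries, lost its call in 4 fits that left out 1 library (adjusted p 0.0725 to 0.105; control replicates 1 and 3, knockdown replicates 1 and 3). The largest falls past it were PMAIP1 (-0.80), which encodes the BH3-only protein NOXA, the matrix protein THBS1 (-0.73), PRDM1 (-0.62), BCL2L1 (-0.62), which encodes the survival protein BCL-XL, and the cytokine LIF (-0.60). PMAIP1 was at 44.9, 43 and 41.9 CPM in the control and at 22.4, 28.1 and 24 CPM in the knockdown libraries, and BCL2L1 at 231.2, 197.3 and 218.9 CPM against 144.8, 125.4 and 151.6 CPM. BBC3, BAX and DDB2 were singled out after their values were seen. BBC3, which encodes the BH3-only protein PUMA, rose by 0.35 on the log2 scale (edgeR adjusted p = 0.0374) with groups that overlapped, and the adjusted p was 0.106 without control replicate 2, 0.138 without control replicate 3, 0.138 without knockdown replicate 1 and 0.144 without knockdown replicate 3. BAX and DDB2 did not pass the test, with log2 fold changes of -0.16 (edgeR adjusted p = 0.224) and 0.05 (edgeR adjusted p = 0.586).

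Genes that p53 lowers indirectly, through CDKN1A and the DREAM repressor complex, were mostly below 0. Of 33 genes in this list, 32 were tested, 11 fell and only NEK2 rose (37.5% called, beside 25.2% of all tested genes, of which 11.9% fell). The fold change lay below 0 for 24 of the 32, as for 8660 of all 17574 genes, with a median of -0.091 on the log2 scale. The list was chosen with earlier results of these data known, so these shares are no independent test. It was abundant, with a median of 7.14 against 4.07 on the log2 CPM scale, and the part of abundance in these counts was not tested. The transcription factors FOXM1 and MYBL2 fell by 0.25 (edgeR adjusted p = 0.00171) and 0.21 (edgeR adjusted p = 0.00809) on the log2 scale, and MYBL2 was at an adjusted p of 0.0512 without control replicate 1. CCNB1, the mitotic cyclin, had a log2 fold change of -0.10 (95% interval -0.226 to 0.027), which passed without knockdown replicate 2 (edgeR adjusted p = 0.0272), and CDK1, its kinase, had -0.02 (-0.168 to 0.124). With the trend of fold change with abundance removed, 5 genes fell and 3 rose. The number of falls was 6 without control replicate 2 or without control replicate 3, and 7 without knockdown replicate 1.

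**Figure D4:**
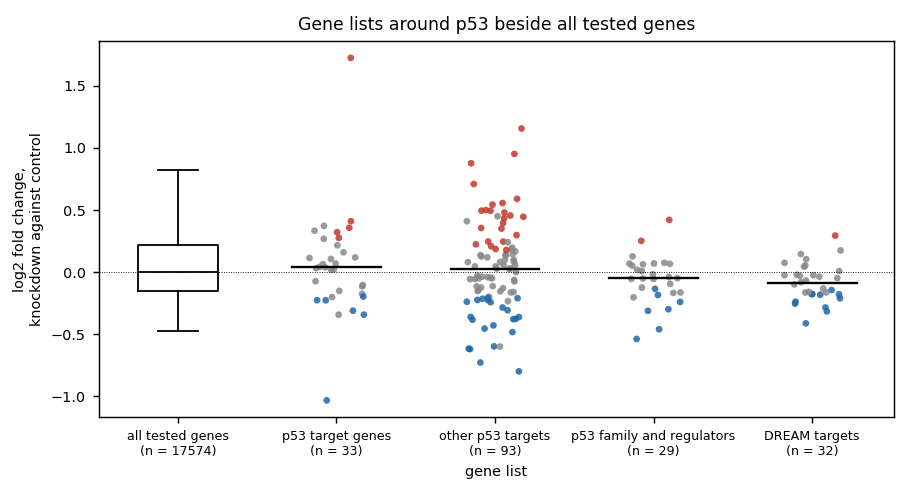
Log2 fold changes between knockdown and control for all 17574 tested genes (box from the lower to the upper quartile with the median, whiskers at the 5th and 95th percentile) and for each tested gene of 4 lists (points, red higher and blue lower at an adjusted p under 0.05, grey otherwise, horizontal bar at the median). The p53 targets spread to both sides of 0, and the DREAM targets lie mostly below it.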

How the data were processed

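Total RNA of 6 libraries, 3 control and 3 CNOT7 knockdown, was extracted with TRIzol, and libraries were made with the NEBNext Ultra kit. The authors deposited raw counts per gene, with no normalization, and a gene length, which is used here for TPM. The submitters' processing notes name CASAVA 1.8, fastp, HISAT2 2.0.5, featureCounts 1.5.0-p3 and DESeq2 1.20.0 with GRCh38, and the strand setting is not given in the sources used here. Positions of 58724 of 58735 genes matched GENCODE release 29. Groups follow the genotype label.

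Genes were filtered with filterByExpr (17574 left) and tested in R 4.3.3 with edgeR 4.0.16 (TMM, glmQLFit, glmQLFTest, no covariate), with Benjamini-Hochberg adjustment over all tested genes and a threshold of 0.05. The SE was obtained as |log2 fold change| over √F, and 95% intervals use the t quantile of the moderated degrees of freedom. The 33 genes, the lists and the named genes (all 33, TP63, TP73, MDM4 and called regulators, the 5 largest rises and falls of the wider list, 4 DREAM targets, markers) were chosen with earlier results of these data known. Depth was 23788451 to 29104872 counts per library. Replicate libraries differed by more than sampling noise (chi-square per degree of freedom of at least 3.20), so none is a copy. Alternatives were DESeq2 1.42.0, RLE factors, other filters on low counts, a replicate block, cyclic loess of limma 3.58.1, a minimum fold change and each library left out. A result on 1 regulator is not reported here. The fits were tested on simulated counts. Sequences were read with Python 3.11.15.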

Additional observations from a re-analysis of the deposited data

How the results depend on the processing

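Of the 11 called p53 targets, 6 kept the call in the 12 alternatives to the fit that could be run for them (CDKN1A, GADD45A, PLK2, PERP, TNFRSF10B and SPATA18), and 5 lost it in some (PLK3, PIDD1, EPS8L2, DRAM1 and CMBL). SPATA18 passed the main filter through its knockdown libraries alone, and the filter of 10 counts in every library removed it. Its kept call thus depends in part on the filter. Over 57 named genes and these 12 alternatives, 622 of 683 values kept their side of the threshold, 51 lost a call and 10 gained one. Where either fit made a call, 0 values changed sign. Genes without a call could change sign, such as FAS (log2 fold change -0.0208 to 0.0635 over the alternatives) and PHLDA3 (-0.2096 to 0.0766). The number of p53 targets that rose was 3 with DESeq2, 3 with no filter on low counts and 1 when calls also needed a change of at least 1 on the log2 scale, and the number that fell was 1 under that rule, which is not among the 12 and left only SPATA18 and PLK2. The removal of the trend with abundance took the calls from EPS8L2, PIDD1 and CMBL, added NINJ1, and left 3 rises and 5 falls among DREAM targets. In the fits that left out 1 library, 3 to 5 p53 targets rose and 3 to 6 fell, 14 to 23 of the wider targets rose and 14 to 19 fell, 1 to 2 regulators rose and 5 to 8 fell, and 6 to 13 DREAM targets fell. Over all genes these fits gave 1626 to 2323 rises and 1367 to 2219 falls. CNOT7 stayed between -2.13 and -1.98 on the log2 scale. Libraries of the same replicate number deviated alike for replicate 2, but not for replicates 1 and 3. Whether the numbers pair the libraries was not settled. Deviations from the group means correlated by 0.023, 0.153 and -0.015 between libraries of the same number over all tested genes and by -0.182, 0.587 and -0.074 over the 33 p53 targets, and control replicate 1 correlated best with knockdown replicate 3 (0.132 and 0.842). With a replicate block, 3202 of all 17574 genes rose and 3306 fell, beside 2329 and 2095 in the main fit. The block also gave 11 falls among regulators and 3 rises among DREAM targets. It gave calls for 15 of the 33 p53 targets, with CCNG1, RRM2B, NINJ1 and TNFRSF10A added. The cause of these shifts was not tested. Low counts limit SPATA18, EDA2R and TIGAR, with at most 38 counts in any library. For TIGAR, the exonic bases shared with another gene add to this, and their part in the low counts was not tested.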

Other observations

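Among the p53 targets, replicate 2 was the lowest library of the control group and also of the knockdown group for 11 of the 33 genes (33.3%, beside 22.9% of all tested genes), namely EPS8L2, TNFRSF10B, CDKN1A, PHLDA3, SFN, AEN, NINJ1, PIDD1, GADD45A, FDXR and EDA2R. It was the highest library of both groups for another 11 genes (33.3%, beside 24.1% of all tested genes), namely PERP, CCNG1, ZMAT3, RRM2B, MDM2, FAS, TRIAP1, DRAM1, PPM1D, SESN1 and CMBL. The same double extreme was found for at most 3 of the 33 genes with replicate 1 or with replicate 3. PHLDA3 was at 62.9 CPM in control replicate 2 against 77.8 and 93.9 CPM in the other control libraries, and at 59.2 CPM in knockdown replicate 2 against 76.9 and 86.9 CPM. Both CDKN1A, which was higher with knockdown, and TNFRSF10B, which was lower, were among the genes lowest in replicate 2. The difference from all genes and the source of this order were not tested.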
